A study of Mus musculus with 9 samples.

Results

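The genes described here are 48 genes of mitosis, taken by name from a fixed list, out of 52025 genes in the table of each library. They encode the kinases and cyclins that drive a cell into division, the machinery that attaches chromosomes to the spindle, the motors that move them and the proteins that split the cell. All 48 were found in every table, and all 48 passed the filter for testing (a mean above 1 FPKM on at least 1 day). FPKM is the number of sequenced fragments of a gene divided by the length of its transcript and by the number of fragments mapped in the library.

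Most of these transcripts are made in a narrow window, from late DNA synthesis to the end of mitosis, and are low in cells that do not divide. Entry into mitosis needs the kinase Cdk1 bound to a B-type cyclin. The spindle checkpoint then holds the cell until every kinetochore, the protein plate on the centromere, has caught microtubules, and the anaphase-promoting complex with Cdc20 starts the separation of the chromatids. In a growing ovarian follicle the dividing cells are mainly granulosa cells, with theca and stromal cells around them, whereas the oocyte at its centre is arrested in the first meiotic prophase and stores transcripts of several of the same genes.

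The study sequenced ovaries of Kunming mice, an outbred stock, on postnatal days 14, 15 and 16 (PD14, PD15 and PD16), the days on which fluid starts to gather in the follicles, and asked how the transcriptome moved over them. There were 9 libraries, 3 for each day. The labels name no allele and no treatment for these mice and tell the 3 groups apart by age alone. The labels give the tissue as ovary but the source as granulosa cells, whereas the study describes whole ovaries and counts its replicates as independent ovaries. Whether an RNA sample came from 1 ovary or 1 animal was not stated further, so the spread between libraries of a day is taken as the spread between ovaries.

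The libraries held between 20.4 M and 28.7 M mapped fragments, as recovered from the FPKM of a single fragment. Markers of both candidate sources were present. The granulosa cell marker Foxl2, a transcription factor, lay between 128 and 183 FPKM, and Inha, the inhibin alpha subunit, between 1780 and 2629 FPKM. The oocyte gene Zp3, which encodes a coat protein of the egg, lay between 263 and 416 FPKM, so every library contained oocyte RNA and none was granulosa cells alone. The leukocyte marker Ptprc reached 0.127 FPKM at most, but other macrophage markers were higher. C1qa lay between 5.7 and 8.5 FPKM and C1qb between 5.4 and 8.3 FPKM, whereas Adgre1 reached 1.33 FPKM and Aif1 0.748 FPKM at most. In such a bulk sample fewer dividing cells and less RNA per dividing cell cannot be told apart.

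The promoters of genes expressed in mitosis are known for a pair of short elements. The cell cycle genes homology region, or CHR, binds the MuvB complex, which represses these genes in resting cells and, with B-Myb and FoxM1, activates them in dividing cells. The CCAAT box binds the trimeric factor NF-Y. The letters TTTGAA or TTCGAA (taken as CHR) and CCAAT were searched on both strands in the 250 bases before the start of each gene in the RefSeq promoter table (GRCm38.p6), which held 41 of the 48 genes. It had no entry for Kif20a, Incenp, Ccna2, Aurkb, Tpx2, Cdc25c and Spc24. Ect2 and Prc1 had 2 promoters each, and a gene was counted where any of its promoters held the letters. A CHR was found in 16 of the 41 genes (39.0%), against 14.4% of the 10021 tested genes with a promoter, counted the same way, and 17.1% of the 32851 single promoters of the table. CCAAT was found in 30 of the 41 genes (73.2%), against 40.2% of the tested genes and 33.8% of the promoters. At least 2 CCAAT boxes stood before 20 of the 41 genes (48.8%), against 15.1% of the tested genes and 10.1% of the promoters. Both elements stood together before 14 of the 41 genes (34.1%), against 5.7% of the tested genes and 6.0% of the promoters. Within 120 bases of the start, a CHR was found for 13 of the 41 genes (31.7%), against 5.7% of the tested genes and 7.6% of the promoters. These are matches of letters and not shown binding sites, and no match of one element was counted as a match of the other.

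The 150 bases before the start are printed for 7 genes, chosen to show promoters rich in these elements beside promoters without them. Capitals mark the matches, and TTCAAA and ATTGG are CHR and CCAAT read on the other strand. Each sequence runs 5′ to 3′ along its gene and ends at the base before the start.
Top2a: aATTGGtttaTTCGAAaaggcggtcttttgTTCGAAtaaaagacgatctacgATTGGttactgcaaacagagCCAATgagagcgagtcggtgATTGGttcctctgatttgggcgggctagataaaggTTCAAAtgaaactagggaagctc
Ckap2l: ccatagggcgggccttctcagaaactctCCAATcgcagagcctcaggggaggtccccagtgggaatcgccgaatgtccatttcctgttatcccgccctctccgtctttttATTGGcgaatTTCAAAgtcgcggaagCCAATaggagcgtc
Mki67: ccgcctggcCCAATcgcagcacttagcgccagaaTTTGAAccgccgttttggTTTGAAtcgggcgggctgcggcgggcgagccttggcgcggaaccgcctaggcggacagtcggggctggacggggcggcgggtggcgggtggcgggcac
Ccnb2: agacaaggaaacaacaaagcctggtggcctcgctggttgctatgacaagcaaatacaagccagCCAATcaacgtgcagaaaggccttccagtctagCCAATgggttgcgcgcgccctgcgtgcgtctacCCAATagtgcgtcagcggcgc
Hmmr: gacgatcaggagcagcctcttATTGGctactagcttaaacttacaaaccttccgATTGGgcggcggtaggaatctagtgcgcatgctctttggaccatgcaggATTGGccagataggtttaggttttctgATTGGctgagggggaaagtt
Anln: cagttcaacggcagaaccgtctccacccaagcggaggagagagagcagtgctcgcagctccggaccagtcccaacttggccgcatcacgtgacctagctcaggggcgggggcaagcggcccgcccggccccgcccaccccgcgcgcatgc
Birc5: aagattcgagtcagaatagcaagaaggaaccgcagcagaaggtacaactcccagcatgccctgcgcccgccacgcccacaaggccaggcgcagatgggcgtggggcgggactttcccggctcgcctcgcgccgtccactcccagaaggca
Top2a was read from chr11:99024190-99024339 on the minus strand. Ckap2l was read from chr2:129297213-129297362 on the minus strand. Mki67 was read from chr7:135716380-135716529 on the minus strand. Ccnb2 was read from chr9:70421555-70421704 on the minus strand. Hmmr was read from chr11:40733438-40733587 on the minus strand. Anln was read from chr9:22389207-22389356 on the minus strand. Birc5 was read from chr11:117849087-117849236 on the plus strand. The promoter of Top2a held 3 CHR and 4 CCAAT matches in these bases, the most of the 7 shown. Ckap2l had 1 CHR and 3 CCAAT matches. Mki67 had 2 CHR and 1 CCAAT matches. Ccnb2 had 3 CCAAT matches, and Hmmr had 4. Anln and Birc5 had neither element in the 150 bases.

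The 48 genes were expressed at moderate levels. The median of their mean FPKM was 13.6, and 33 genes had a mean above 10 FPKM. Ccnb2, a B-type cyclin partner of Cdk1, was the highest with a mean of 42.0 FPKM over the 9 libraries. Next stood Cdc20, the activator of the anaphase-promoting complex, with 39.0 FPKM, Top2a, the topoisomerase that untangles sister chromatids, with 38.9 FPKM, and Pttg1, the securin that restrains separase, with 33.4 FPKM. At the low end were Kif18a, a kinesin that damps chromosome movement on the spindle, with 2.04 FPKM and Kif11, the kinesin that pushes spindle poles apart, with 1.35 FPKM. Kif11 was the one gene not above 1 FPKM in all 9 libraries. Together the 48 genes made up 0.211% to 0.267% of the FPKM sum of a library.

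**Figure D1:**
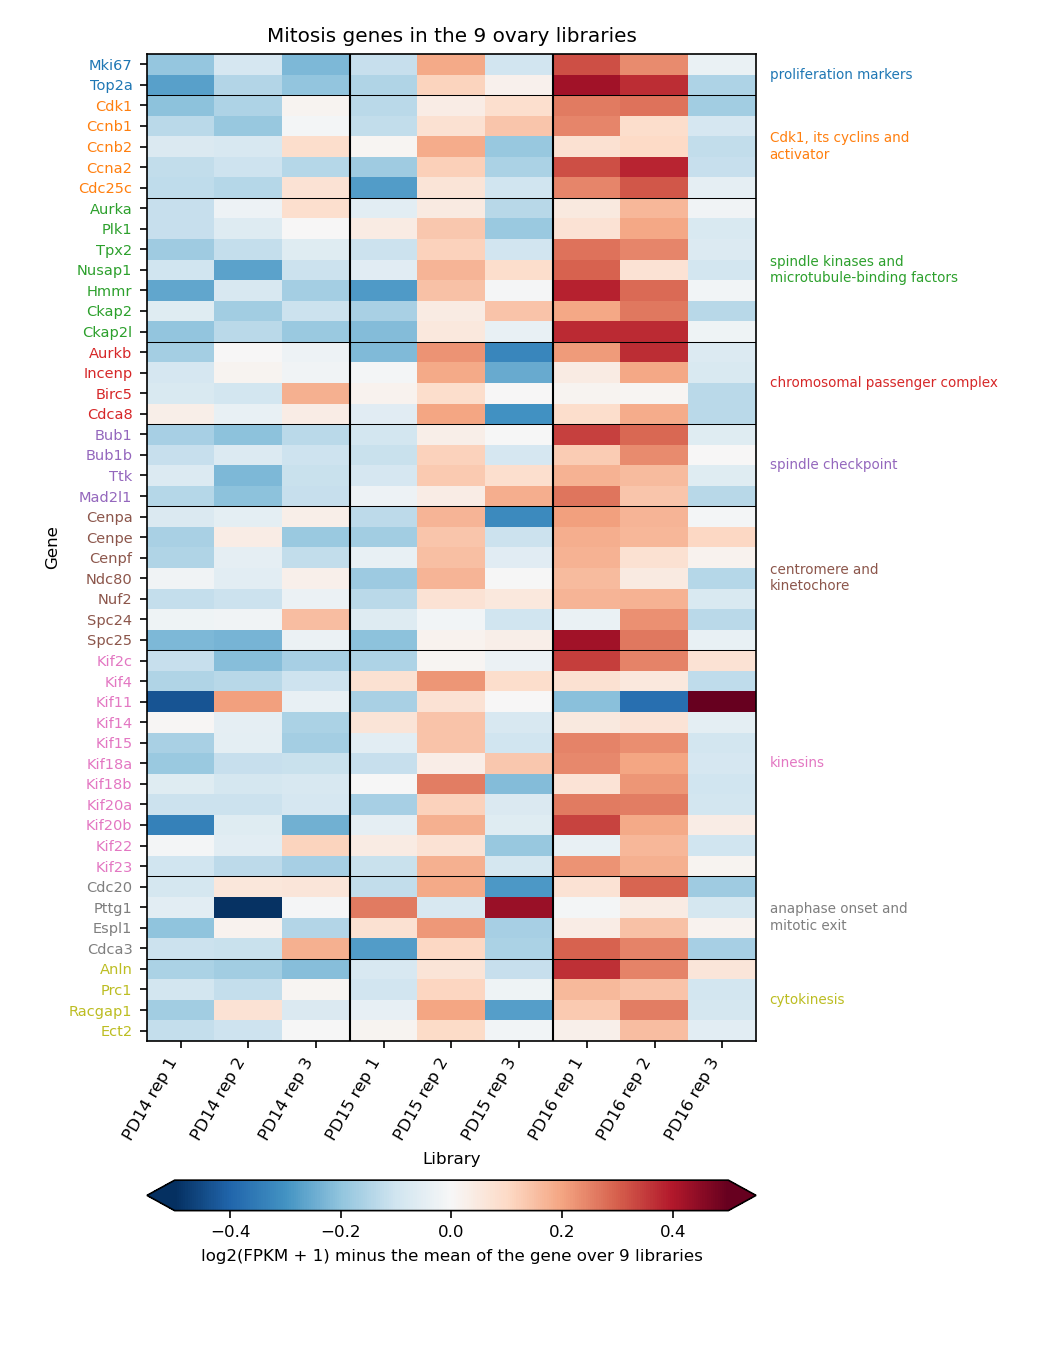
Each row is a mitosis gene, ordered by role, and each column a library, with 3 libraries a day (rep, replicate). The colour gives log2(FPKM + 1) minus the mean of that gene over the 9 libraries, and values beyond 0.5 in either direction take the end colours. Replicates 1 and 2 of PD16 and replicate 2 of PD15 are red in most rows, PD14 is blue in most rows, and replicate 3 of PD16 is pale or blue in every row but a few, of which Kif11 is the strongest.

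Comparing PD16 with PD14 asked whether transcripts of division were more abundant after the 2 days. Of the 48 genes, 45 had a higher mean log2 value at PD16, against 52.2% of all 15495 genes tested. The median difference was 0.21 on the log2(FPKM + 1) scale for the 48 genes and 0.01 for all genes tested. A rise passed the test for 2 of the 48, Anln and Kif2c, and no fall passed it. With limma and Benjamini-Hochberg adjustment over all genes tested, 4.25% of genes were called in either direction and 2.36% were called higher, so a share of 2 in 48 is near the background and is no result about mitosis genes as such. At an unadjusted p below 0.05 in limma, 21 of the 48 genes (43.8%) passed, all higher at PD16, where 22.8% of all genes passed in either direction. This count changed with single libraries and was 9 without replicate 1 of PD16, 10 without replicate 2 of PD16, 12 without replicate 1 of PD14 and 30 without replicate 3 of PD16. In 14 of the 48 (29.2%) every PD16 library lay above every PD14 library, against 15.0% of all genes tested. These were Mki67, Nusap1, Hmmr, Ckap2l, Bub1, Bub1b, Ttk, Cenpe, Cenpf, Kif2c, Kif18a, Kif20b, Kif23 and Anln.

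Anln (ENSMUSG00000036777) encodes anillin, which ties the contractile ring of a dividing cell to its membrane. Its FPKM was 6.86, 6.76 and 6.57 in the PD14 libraries, 7.29, 8.16 and 7.09 in the PD15 libraries and 10.3, 9.40 and 8.15 in the PD16 libraries. All 6 later libraries were above the 3 of PD14, and PD15 and PD16 overlapped slightly, with replicate 2 of PD15 just above replicate 3 of PD16. The mean rose from 6.73 ± 0.148 (SD, n = 3) to 9.28 ± 1.07 FPKM (SD, n = 3), a fold of 1.38. The log2 change was 0.41 (SE 0.08, adjusted p = 0.0305, limma).

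Kif2c (ENSMUSG00000028678) encodes MCAK, a kinesin that takes microtubules apart at their ends and so frees wrongly attached kinetochores. The PD14 libraries had 11.1, 10.3 and 10.7 FPKM, those of PD15 had 10.8, 12.2 and 11.8 FPKM, and those of PD16 had 15.6, 14.5 and 12.8 FPKM. It was the one mitosis gene whose 3 PD16 libraries all lay above all 6 earlier libraries. The mean went from 10.7 ± 0.390 to 14.3 ± 1.46 FPKM (SD, n = 3 each), a fold of 1.34, and the log2 change was 0.39 (SE 0.08, adjusted p = 0.0301, limma). Both calls, though not the size of the differences, depended on single libraries, on the filter and on fitting no term for replicate number. Without any 1 of the PD14 libraries, or without replicate 1 or replicate 2 of PD16, the adjusted p in limma was 0.0651 to 0.103 for Anln and 0.0727 to 0.0996 for Kif2c, and neither gene was called, with log2 changes of 0.34 to 0.42 for Anln and 0.32 to 0.41 for Kif2c. With no filter on low values the adjusted p was 0.0622 for Anln and 0.0601 for Kif2c, at the same log2 changes of 0.41 and 0.39. Without replicate 3 of PD16 the number of called genes rose from 2 to 8 (Anln, Bub1, Ccna2, Ckap2l, Kif2c, Spc25, Top2a and Tpx2).

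**Figure D2:**
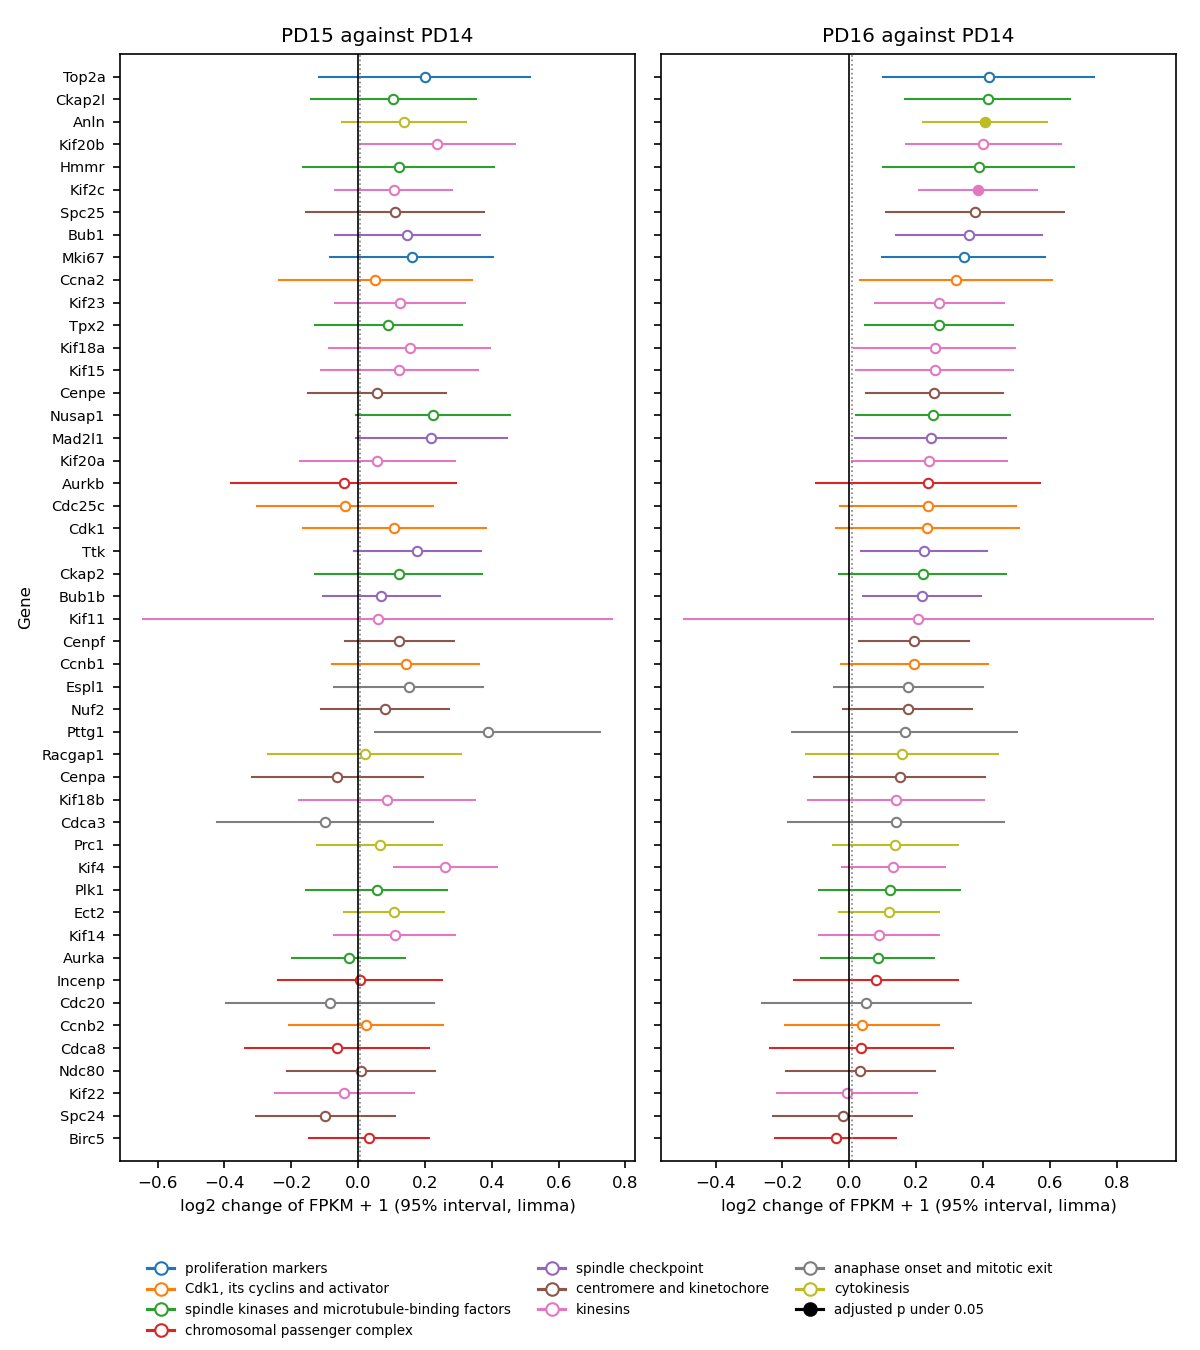
Points give the log2 change in FPKM + 1 of each of the 48 genes, from PD14 to PD15 in the left panel and from PD14 to PD16 in the right, with the 95% interval from limma (n = 3 libraries a day), coloured by role. The dotted line is the median of all 15495 genes tested. Filled points, Anln and Kif2c in the right panel, have an adjusted p below 0.05, and all but 3 points of the right panel lie above 0.

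The proliferation markers had the largest median difference of the roles, 0.38 from PD14 to PD16. For Top2a the PD14 libraries gave 31.6, 34.5 and 33.4 FPKM, the PD15 libraries 34.4, 41.5 and 38.9 FPKM, and the PD16 libraries 51.7, 49.8 and 34.3 FPKM. Replicates 1 and 2 of PD16 stood well above all the others, while replicate 3 fell within the PD14 range. The log2 difference was 0.42 with a wide interval, from 0.10 to 0.73, and it did not pass the test (adjusted p = 0.119, limma). Mki67, which encodes the Ki-67 protein that coats mitotic chromosomes, had 23.4, 25.3 and 22.8 FPKM at PD14, 24.7, 30.8 and 25.1 FPKM at PD15 and 33.8, 31.8 and 26.2 FPKM at PD16. Here the PD16 libraries did not overlap those of PD14, but replicate 2 of PD15 was above replicate 3 of PD16. The log2 difference between PD16 and PD14 was 0.34 (adjusted p = 0.103, limma).

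Among Cdk1, its cyclins and its activator, the median difference from PD14 to PD16 was 0.23, all 5 were higher at PD16 and none passed the test. Cdk1 itself gave 16.8, 17.5 and 19.8 FPKM at PD14, 17.7, 20.1 and 20.8 FPKM at PD15 and 23.6, 23.8 and 17.2 FPKM at PD16. The 2 high PD16 libraries were above all others, and the third lay among those of PD14. Ccna2, the A-type cyclin of DNA synthesis and early mitosis, had the same shape, with 29.7 and 30.9 FPKM in replicates 1 and 2 of PD16 and 21.6 FPKM in replicate 3, next to 21.2 to 21.8 FPKM at PD14. About 12.5% of the exon length of Ccna2 overlaps Exosc9 on the opposite strand, and the strand setting of the counting is not given. Ccnb1, the other B-type cyclin, ran from 22.7 to 25.8 FPKM at PD14 and from 24.5 to 31.0 FPKM at PD16. Cdc25c, a phosphatase that activates Cdk1, was between 5.40 and 6.42 FPKM at PD14 and between 5.83 and 7.76 FPKM at PD16. Ccnb2 had the smallest difference of the 5, and the genes were not tested against each other. It had 39.8, 39.6 and 44.5 FPKM at PD14, 42.2, 47.8 and 36.6 FPKM at PD15 and 44.2, 44.9 and 38.3 FPKM at PD16, so the days overlapped fully. The log2 difference between PD16 and PD14 was 0.04 with an interval from -0.19 to 0.27 (adjusted p = 0.856, limma).

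The spindle kinases and microtubule-binding factors were all higher in mean at PD16 than at PD14, with a median difference of 0.25 over 7 genes. Ckap2l, a spindle protein, was among those with the larger differences. Its FPKM was 13.9, 14.6 and 14.0 at PD14, 13.7, 16.7 and 15.7 at PD15 and 21.2, 21.1 and 15.9 at PD16. All PD16 libraries exceeded those of PD14, and replicate 3 of PD16 was within the range of PD15. The log2 difference was 0.41 (SE 0.11), which missed the threshold (adjusted p = 0.0656, limma). Hmmr, which helps to focus spindle poles, was at 5.23 to 6.06 FPKM at PD14 and 6.39 to 8.73 FPKM at PD16. Tpx2, which activates Aurora A on the spindle, was at 21.5 to 23.4 FPKM at PD14 and at 29.7, 29.2 and 23.3 FPKM in the PD16 libraries. Nusap1, which bundles microtubules, was higher in every PD15 and every PD16 library than in any PD14 library, with 16.6 to 18.8 FPKM at PD14, 19.3 to 22.8 FPKM at PD15 and 18.8 to 25.0 FPKM at PD16. Ckap2, which stabilises spindle microtubules, was at 11.2 to 12.2 FPKM at PD14 and at 14.7, 15.5 and 11.5 FPKM in the PD16 libraries. The kinases of this role had smaller differences. Plk1, polo-like kinase 1, had 23.2, 24.04 and 25.2 FPKM at PD14, 25.9, 27.8 and 22.02 FPKM at PD15 and 26.5, 28.9 and 23.8 FPKM at PD16. Replicate 3 of PD16 lay inside the PD14 range, and the log2 difference was 0.12 with an interval from -0.09 to 0.33 (adjusted p = 0.477, limma). Aurka, Aurora kinase A, ran from 16.7 to 19.4 FPKM at PD14 and from 18.0 to 20.54 FPKM at PD16.

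The chromosomal passenger complex, which corrects faulty attachments and later directs cytokinesis, showed the smallest median difference of the roles, 0.06 from PD14 to PD16. Birc5, the subunit survivin, had 24.4, 24.2 and 29.3 FPKM at PD14, 26.1, 27.5 and 25.8 FPKM at PD15 and 26.1, 26.0 and 23.4 FPKM at PD16. The lowest and the highest of its 9 libraries were at PD16 and PD14, the groups overlapped, and the log2 difference between PD16 and PD14 was -0.04 with an interval from -0.22 to 0.14 (adjusted p = 0.808, limma). Incenp, the scaffold of the complex, had 26.6, 28.5 and 27.9 FPKM at PD14, 28.1, 32.4 and 23.5 FPKM at PD15 and 29.1, 32.4 and 26.7 FPKM at PD16. Its PD15 libraries alone spanned nearly the whole range of the gene. The log2 difference between PD16 and PD14 was 0.08 with an interval from -0.16 to 0.33 (adjusted p = 0.702, limma). Cdca8, the subunit borealin, was at 9.71 to 10.3 FPKM at PD14 and 9.01 to 11.5 FPKM at PD16. Aurkb, the kinase of the complex, was the one member with a larger difference, 0.24, and its libraries were widely spread, with 11.2 to 16.8 FPKM at PD15 and 13.5 to 18.7 FPKM at PD16. No member passed the test.

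The 4 spindle checkpoint genes all had a higher mean at PD16. Each was among the 21 mitosis genes with an unadjusted p below 0.05 in limma for PD16 against PD14, a level that 22.8% of all genes reached and that 9 or 10 of the 48 reached without replicate 1 or replicate 2 of PD16. None passed after adjustment, and the median difference was 0.23. For Bub1, the kinase that recruits checkpoint proteins to the kinetochore, the libraries read 11.9, 11.6 and 12.2 FPKM at PD14, 12.6, 13.8 and 13.5 FPKM at PD15 and 17.4, 16.7 and 12.9 FPKM at PD16. No PD14 library reached any later one. The log2 difference was 0.36 (SE 0.10, adjusted p = 0.0698, limma). Bub1b, which encodes the checkpoint protein BubR1, was at 22.2, 23.0 and 22.4 FPKM at PD14, 22.3, 26.2 and 22.7 FPKM at PD15 and 26.4, 28.6 and 24.1 FPKM at PD16. The PD16 libraries were above those of PD14 and replicate 2 of PD15 was among them, with a log2 difference of 0.22 between PD16 and PD14 (SE 0.08, adjusted p = 0.140, limma). Ttk, the kinase Mps1, ran from 8.49 to 9.56 FPKM at PD14 and from 9.63 to 11.5 FPKM at PD16. Mad2l1, the inhibitor of Cdc20, ran from 7.76 to 8.33 FPKM at PD14, from 8.90 to 10.5 FPKM at PD15 and from 8.16 to 11.2 FPKM at PD16.

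Genes of the centromere and kinetochore had log2 differences between PD16 and PD14 from -0.02 to 0.38, the lowest and the highest in partners of a complex. Ndc80, Nuf2, Spc24 and Spc25 form the NDC80 complex, the main microtubule anchor of the kinetochore. Spc25 had 11.4, 11.4 and 13.2 FPKM at PD14, 11.6, 13.7 and 13.8 FPKM at PD15 and 18.4, 16.4 and 13.1 FPKM at PD16, a log2 difference of 0.38 between PD16 and PD14 with an interval from 0.11 to 0.64 (adjusted p = 0.1, limma). Spc24 had 13.3, 13.3 and 15.1 FPKM at PD14, 12.8, 13.3 and 12.5 FPKM at PD15 and 13.1, 15.9 and 12.2 FPKM at PD16, a log2 difference of -0.02 with an interval from -0.23 to 0.19 (adjusted p = 0.924, limma). In Spc25 replicates 1 and 2 of PD16 were both above all other libraries, whereas in Spc24 replicate 2 alone was, and its days overlapped. The difference between these partners was not tested, and their intervals overlapped. Ndc80 was at 14.3, 13.9 and 14.7 FPKM at PD14, 12.6, 16.4 and 14.4 FPKM at PD15 and 16.2, 14.9 and 13.0 FPKM at PD16, with overlapping days, and its log2 difference was 0.03 with an interval from -0.19 to 0.26 (adjusted p = 0.874, limma). Nuf2 ran from 6.14 to 6.604 FPKM at PD14 and from 6.35 to 7.75 FPKM at PD16. Cenpe, a kinesin of the kinetochore, and Cenpf, a large coiled-coil protein there, were each higher in all PD16 libraries than in all PD14 libraries. Cenpe was at 6.25 to 7.44 FPKM at PD14 and 7.84 to 8.35 FPKM at PD16, and Cenpf at 6.05 to 6.57 FPKM at PD14 and 6.91 to 7.83 FPKM at PD16. Cenpa, the histone variant that marks centromeres, was at 8.89 to 9.59 FPKM at PD14, 7.33 to 10.7 FPKM at PD15 and 9.31 to 11.0 FPKM at PD16.

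**Figure D3:**
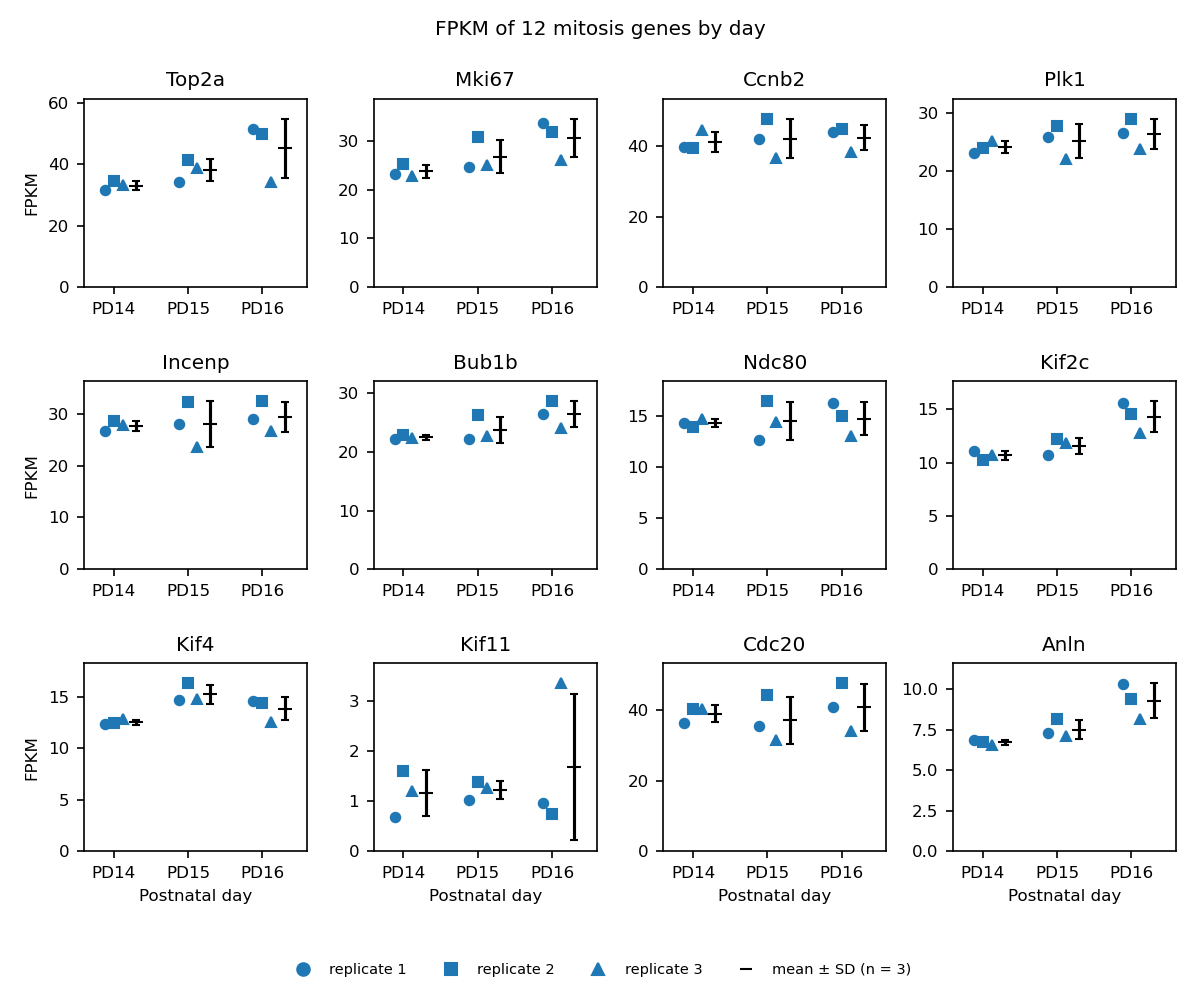
FPKM of 12 mitosis genes by postnatal day, with a linear axis from 0 in each panel. Symbols are libraries (circle, square and triangle for replicates 1, 2 and 3) and the black bar is the mean ± SD (n = 3). In Top2a, Mki67, Kif2c and Anln the circle and the square of PD16 lie above every other day and the triangle lies lower, while in Ccnb2, Incenp, Ndc80 and Cdc20 the days overlap.

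Of the 11 kinesins, 10 had a higher mean at PD16 than at PD14, with a median difference of 0.24, and Kif2c was the one that passed the test. Kif20b, a motor of cytokinesis, came closest after it, with a log2 difference of 0.40 (SE 0.10, adjusted p = 0.0596, limma). It had 7.32, 9.08 and 7.92 FPKM at PD14, 9.20, 10.9 and 9.08 FPKM at PD15 and 12.3, 11.0 and 9.79 FPKM at PD16, with every later library above the highest of PD14, the lowest of them barely so. Kif4, a motor of chromosome arms and of the central spindle, had another course. It was at 12.3, 12.5 and 12.8 FPKM at PD14, 14.6, 16.3 and 14.8 FPKM at PD15 and 14.6, 14.4 and 12.6 FPKM at PD16. All PD15 libraries lay above all of PD14 and all of PD16. The separation from PD16 was barely there, with 14.63 FPKM in replicate 1 of PD15 and 14.62 FPKM in replicate 1 of PD16. The log2 difference between PD16 and PD14 was 0.13 with an interval from -0.02 to 0.29 (adjusted p = 0.286, limma). About 15.1% of its exon length overlaps Pdzd11 on the opposite strand. Kif22, a chromosome motor also called Kid, was at 13.4, 12.96 and 14.6 FPKM at PD14, 13.9, 14.2 and 11.7 FPKM at PD15 and 13.1, 15.3 and 12.5 FPKM at PD16, with overlapping days and a log2 difference of -0.01 between PD16 and PD14 (interval -0.21 to 0.20, adjusted p = 0.974, limma). Kif11 went against the others between libraries. It had 0.68, 1.61 and 1.20 FPKM at PD14, 1.02, 1.38 and 1.26 FPKM at PD15 and 0.96, 0.74 and 3.34 FPKM at PD16, so that replicate 3 of PD16 was its highest library. The pooled SD of Kif11 within a day was 0.46 on the log2(FPKM + 1) scale, against a median of 0.14 for the 48 genes. With the exon lengths of the annotation used here, the FPKM of Kif11 did not give whole numbers of fragments in every library. The same held for Kif20a, Kif20b, Ndc80, Incenp, Cdc25c and Espl1. Kif20a, which carries passenger proteins to the midzone, overlaps Cdc23 on the opposite strand over 29.3% of its exons. It had 10.8 to 11.0 FPKM at PD14 and 14.2, 14.2 and 10.9 FPKM in the PD16 libraries. Kif15, a backup for Kif11 in spindle assembly, ran from 3.73 to 4.14 FPKM at PD14 and from 3.99 to 5.31 FPKM at PD16. Kif18a ran from 1.66 to 1.80 FPKM at PD14 and from 1.86 to 2.58 FPKM at PD16, and Kif23, the motor of centralspindlin, from 8.74 to 9.19 FPKM at PD14 and from 10.04 to 11.8 FPKM at PD16, without overlap in either gene. Kif14, a motor of cytokinesis, ran from 3.00 to 3.49 FPKM at PD14 and from 3.32 to 3.69 FPKM at PD16, and Kif18b, which shortens astral microtubules, from 6.80 to 6.96 FPKM at PD14 and from 6.75 to 8.67 FPKM at PD16, with overlap in both.

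The genes of anaphase onset and mitotic exit had a median difference of 0.15 from PD14 to PD16, and no gene passed. Cdc20 gave 36.4, 40.3 and 40.5 FPKM at PD14, 35.5, 44.3 and 31.5 FPKM at PD15 and 40.8, 47.6 and 34.1 FPKM at PD16. Its days overlapped, with a log2 difference of 0.05 between PD16 and PD14 and an interval from -0.26 to 0.36 (adjusted p = 0.861, limma). Pttg1 gave 31.7, 23.1 and 32.8 FPKM at PD14, 39.7, 31.1 and 44.7 FPKM at PD15 and 32.8, 33.9 and 30.9 FPKM at PD16. It was the one gene of the 48 with replicate 2 as the lowest library of PD15, the reverse of most mitosis genes on that day. Espl1, the protease separase that cuts cohesin, ran from 10.1 to 11.9 FPKM at PD14 and from 11.9 to 13.1 FPKM at PD16. Cdca3, a trigger of mitotic entry that is degraded at mitotic exit, ran from 14.4 to 17.8 FPKM at PD14 and from 13.8 to 19.4 FPKM at PD16.

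Of the other cytokinesis genes, Ect2, the exchange factor that activates RhoA at the cleavage site, had 15.7, 15.9 and 17.1 FPKM at PD14, 17.3, 18.4 and 16.9 FPKM at PD15 and 17.5, 19.2 and 16.5 FPKM at PD16. Its PD16 libraries overlapped those of PD14 through replicate 3, and the log2 difference was 0.12 (interval -0.03 to 0.27, adjusted p = 0.325, limma). Prc1, which cross-links microtubules of the midzone, ran from 11.0 to 12.1 FPKM at PD14 and from 11.2 to 13.5 FPKM at PD16. Racgap1, a subunit of centralspindlin, ran from 13.2 to 15.8 FPKM at PD14 and from 14.0 to 18.1 FPKM at PD16. Neither passed the test, and the median difference of the 4 cytokinesis genes was 0.15.

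Between PD14 and PD15 the differences were smaller. Of the 48 genes, 39 had a higher mean at PD15, against 51.9% of all genes tested, and the median difference was 0.10 against 0.01 for all genes. No mitosis gene passed limma after adjustment, where 0.678% of all genes did, and 3 (6.25%) had an unadjusted p below 0.05 against 14.7% of all genes. Those 3 were Kif4 with a log2 difference of 0.26 (adjusted p = 0.132, limma), Pttg1 with 0.39 (adjusted p = 0.274, limma) and Kif20b with 0.24 (adjusted p = 0.327, limma). Every PD15 library was above every PD14 library for 6 of the 48 (12.5%), Nusap1, Bub1, Mad2l1, Kif4, Kif20b and Anln, against 10.4% of all genes tested. Without replicate 2 of PD15 the median difference fell from 0.10 to 0.03 and the count of higher genes from 39 to 29. The number with an unadjusted p below 0.05 was 2 to 8 when single libraries were left out, with 8 without replicate 3 of PD16 and 5 without replicate 1 of PD16.

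Between PD15 and PD16, 44 of the 48 genes had a higher mean at PD16, against 53.2% of all genes tested, with a median difference of 0.12 against 0.01. None passed limma after adjustment, where 0.729% of all genes did, and 5 (10.4%) had an unadjusted p below 0.05 (Kif2c, Anln, Ckap2l, Cdc25c and Spc25, all higher at PD16) against 14.1% of all genes. Kif2c was the one gene (2.08%) with every PD16 library above every PD15 library, against 9.85% of all genes tested. Kif4 was the one gene with every PD16 library below, the nearest of them barely so, against 9.73%. The number with an unadjusted p below 0.05 was 20 without replicate 3 of PD16 and 16 without replicate 2 of PD15, but 3 without replicate 1 of PD14 or replicate 3 of PD15 and 2 without replicate 1 of PD15, replicate 1 of PD16 or replicate 2 of PD16. The median difference was 0.06 without replicate 2 of PD16, 0.19 without replicate 2 of PD15 and 0.20 without replicate 3 of PD16. The 3 comparisons share libraries, so their values are not independent of each other.

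Set in order by mean log2 value, 35 of the 48 genes went PD14, PD15, PD16 from low to high, an order held by 24.6% of all genes tested, and no gene had the opposite order, held by 19.6%. Kif4, Kif14, Pttg1 and Birc5 were highest at PD15. Cdc25c, Aurka, Aurkb, Cdca8, Cenpa, Cdc20, Cdca3, Spc24 and Kif22 were lowest at PD15. Spc24, Kif22 and Birc5 were the 3 genes with a mean at PD16 below that at PD14. As each mean rests on 3 libraries and the differences between neighbouring days did not pass the test for any of the 48, the place of PD15 in these orders is a description of the means.

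The spread between libraries of a day was the main feature of these genes at PD15 and PD16, since most of the 48 moved together from library to library. In sums over the 48 genes, the PD14 libraries had 686, 696 and 731 FPKM, the PD15 libraries 714, 821 and 723 FPKM and the PD16 libraries 862, 873 and 710 FPKM. Replicate 2 of PD15 and replicates 1 and 2 of PD16 were high, and the other 6 libraries lay within 686 to 731 FPKM whatever their day. Averaged over the genes as log2 deviations from the mean of each gene, the values were -0.13, -0.10 and -0.06 at PD14, -0.09, 0.12 and -0.06 at PD15 and 0.18, 0.19 and -0.05 at PD16. The SD of this average between libraries of a day was 0.10, about as large as the median difference between PD15 and PD14.

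Replicate 3 of PD16 was the lowest library of its day for 47 of the 48 genes, where it was the lowest for 38.1% of all genes tested. Kif11, highest there, was the exception. Against replicate 3, replicate 1 of PD16 was higher by a median of 0.25 and replicate 2 by 0.27, whereas replicates 1 and 2 split the genes 27 to 21 between them. Replicate 2 of PD15 was the highest of its day for 41 of the 48, against 29.9% of all genes tested, by a median of 0.21 over replicate 1 and 0.18 over replicate 3. The PD14 libraries were closer together. Replicate 3 was the highest for 25 genes, replicate 2 for 15 and replicate 1 for 8. The median range of a gene over the 3 libraries was 0.13 at PD14, 0.26 at PD15 and 0.32 at PD16, against 0.18, 0.19 and 0.19 for all genes tested.

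Replicates 1 and 2 of PD16 both lay above all 3 PD14 libraries for 41 of the 48 genes, and their mean was above that of PD14 by a median of 0.28. Replicate 3 of PD16 lay above all PD14 libraries for 15 genes, with a median of 0.02 over PD14. Replicate 2 of PD15 lay above all PD14 libraries for 40 genes, with a median of 0.20, and replicates 1 and 3 of PD15 both did so for 7 genes, with a median of 0.03. These libraries were singled out after their values were seen, so the counts describe them and compare no groups. For all genes tested the shares above all PD14 libraries were 22.8%, 31.4%, 27.4% and 15.6% in the same order.

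The number of fragments behind each value sets its precision. For the 41 genes whose FPKM gave whole fragments (within 0.01) in all 9 libraries with the exon lengths of the annotation, a library held from 361 to 11095 fragments of a gene. Their median SD from counting was 0.03 on the log2 scale, and their median SD within a day, which includes the difference between ovaries, was 0.13. Depth moved with these libraries in part. Replicate 3 of PD16, low for the mitosis genes, was the deepest of its day with 25.4 M fragments against 23.8 M and 22.7 M. Replicate 2 of PD15, high for them, was the shallowest of its day with 23.8 M against 25.5 M and 28.7 M, and replicate 3 of PD14, with the highest sum of its day, was the shallowest with 20.4 M against 24.5 M and 24.2 M. The part of depth in the spread was not tested. Over the 48 genes the median SD within a day was 0.14, against 0.11 for all genes tested, and a median of 42.3% of the sum of squares of a gene lay between days, against 36.7%. Kif2c with 80.2%, Anln with 79.4% and Kif4 with 72.04% had the most between days, and these 3 also had small SDs within a day, from 0.08 to 0.11.

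**Figure D4:**
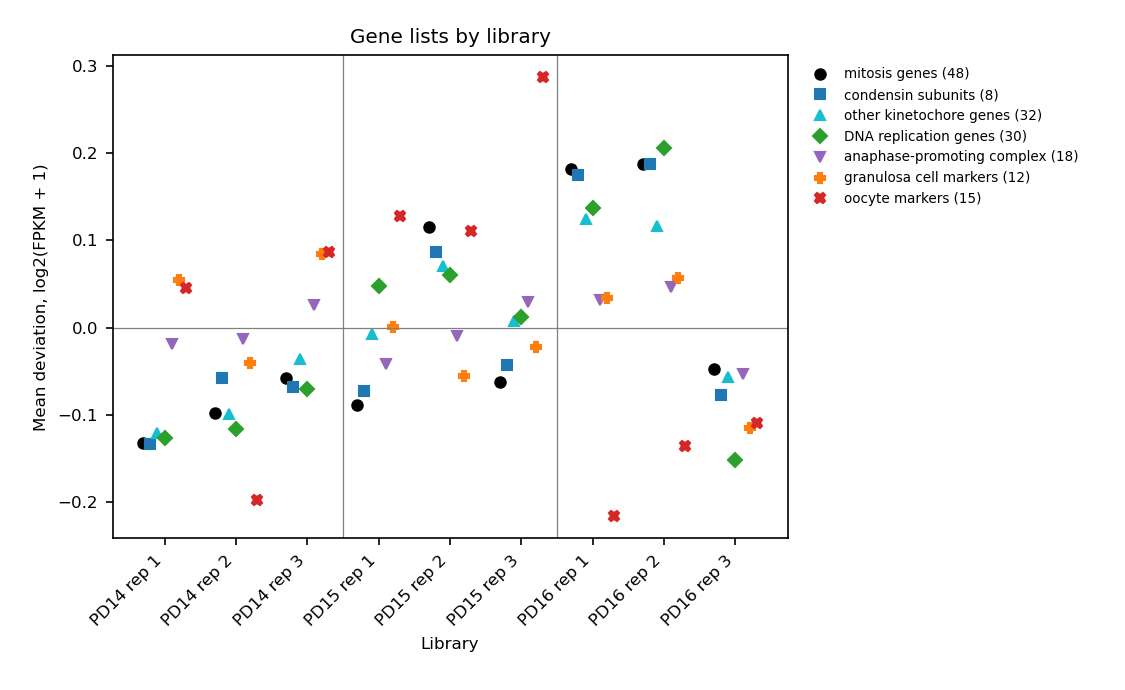
For each library, symbols give the mean over the genes of a list of the log2(FPKM + 1) deviation from the mean of each gene over the 9 libraries, with the number of genes tested in brackets. Mitosis genes (black), condensin subunits, other kinetochore genes and DNA replication genes are all high in replicates 1 and 2 of PD16 and below 0 in replicate 3, the anaphase-promoting complex stays within about 0.05 of 0, and oocyte markers follow another order.

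Other genes of the same pathway, outside the 48, were compared as lists. Of 32 other kinetochore genes, 27 had a higher mean at PD16 than at PD14, with a median difference of 0.17, and none passed the test. The extremes were Knl1, a docking platform for checkpoint proteins, with 0.38 and Mad1l1, the partner of Mad2, with -0.12. All 8 condensin subunits, which compact chromosomes, were higher, with a median of 0.18, from 0.01 for Ncaph2 to 0.35 for Smc2, and none passed. Of 12 cohesin subunits and regulators, which hold sister chromatids together, 11 were higher, with a median of 0.13. Smc3, a core arm of the cohesin ring, rose by a log2 change of 0.26 (adjusted p = 0.0413, limma), and Cdca5, the cohesin stabiliser sororin, was the lowest with -0.01. The 18 genes of the anaphase-promoting complex, which is needed in resting cells too, split 10 to 8 with a median of 0.02, from -0.21 for Anapc15 to 0.23 for Cdc27, and none passed.

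Among 17 G2/M transcription factors and MuvB subunits, 13 were higher at PD16 with a median of 0.10. Nfya, a subunit of the CCAAT-binding factor NF-Y, rose by 0.33 (adjusted p = 0.0423, limma), and Lin37, a MuvB subunit, had the lowest value, -0.28 (adjusted p = 0.0608, limma). Of 33 further genes of mitotic entry, spindle and cytokinesis, 25 were higher with a median of 0.11. Fam83d, a spindle protein that aligns chromosomes, rose by 0.62 (adjusted p = 0.0256, limma) and Nek6, a mitotic kinase, by 0.39 (adjusted p = 0.0253, limma), and Bora, an activator of Aurora A, was the lowest with -0.08. Over these 120 genes together 94 were higher at PD16, with a median of 0.11, against 52.2% of all genes tested. The 4 calls, all rises, were a share below the 4.25% of all genes called in either direction and above the 2.36% called higher. So few calls are no result about these genes as a group. None of the 120 was called between PD14 and PD15 or between PD15 and PD16.

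DNA replication genes, which act in S phase before mitosis, were compared as the most similar set. Of 30 genes, 29 were higher in mean at PD15 than at PD14, by a median of 0.12, and 28 had a higher mean at PD16 than at PD14 with a median of 0.16, from -0.07 for Rpa1 to 0.36 for Pcna, the sliding clamp of DNA polymerases. None was called in any comparison. The 3 PD15 libraries stood at 0.05, 0.06 and 0.01 as mean deviations of this list, closer together than the -0.09, 0.12 and -0.06 of the mitosis genes, and both lists were lowest of the day in replicate 3 of PD16, with -0.15 and -0.05. No test was made of the difference between the lists.

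Markers of cell types were set beside these values. The 12 granulosa cell markers had mean deviations of 0.06, -0.04 and 0.08 at PD14, 0.00, -0.05 and -0.02 at PD15 and 0.03, 0.06 and -0.11 at PD16. Replicate 3 of PD16 was the lowest of all libraries for these markers, whereas for the mitosis genes it was the lowest of its day only. Replicate 2 of PD15, high for the mitosis genes, was the second lowest library for the granulosa cell markers. Their summed level ran from 3232 to 3905 FPKM at PD14, 3069 to 3471 FPKM at PD15 and 3202 to 3765 FPKM at PD16. Inha alone, with 1780 to 2629 FPKM over the 9 libraries, made up most of this sum. Of the 12 markers, 5 had a higher mean at PD16 than at PD14. In that comparison Amh, an inhibitor of follicle recruitment, rose by 0.47 and Esr2, an estrogen receptor, by 0.48, while Cyp19a1, the aromatase, had a change of -0.84 and Kitl, the KIT ligand, of -0.50 (adjusted p from 0.0151 to 0.0494, limma). With these, 2 of the 12 were called higher and 2 lower, where 4.25% of all genes tested were called in either direction. The 15 oocyte markers summed to 1169 to 1436 FPKM at PD14, 1516 to 1620 FPKM at PD15 and 1111 to 1197 FPKM at PD16. Of these 15, 5 had a higher mean at PD16 than at PD14, and Bmp15 alone was called, as higher. None of these 27 markers was at 0 in any library. The part of cell composition in the differences of the mitosis genes was not tested.

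The other lists of markers moved in several directions. From PD14 to PD16 the median differences were 0.02 for 8 theca and interstitial cell markers, -0.08 for 7 stromal markers, -0.16 for 6 endothelial markers, 0.17 for 6 macrophage markers, -0.52 for 5 red cell markers, -0.42 for 5 markers of surface epithelium and oviduct, -0.50 for the single fat marker tested and 0.20 for 5 smooth muscle markers. Theca and interstitial markers had mean deviations of 0.16, -0.25 and 0.17 in the PD16 libraries, an order unlike that of the mitosis genes. Called from PD14 to PD16 in these lists were Krt8, Krt18, Krt19, Tie1 and Plin1, all lower, and Cnn1, higher (adjusted p below 0.05, limma). The fat markers Lep, Cidec and Adipoq were listed at 0 in 7, 5 and 3 of 9 libraries.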

How the data were processed

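Total RNA of ovaries was sequenced in 9 libraries, 3 each for PD14, PD15 and PD16, made with the NEBNext Ultra kit from 1 µg of RNA. The authors deposited FPKM for 52025 genes in 1 table per library, which were taken without rescaling. The submitters' processing notes name HISAT2 2.0.5 and mm10. The counter, the annotation release and the strand setting are not given in the sources used here.

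Exon lengths came from GENCODE M21, which matched 50376 genes (96.8%). With them 93.7% to 94.4% of low FPKM were whole numbers of fragments (within 0.01), which gave each library's depth. No test used these fragments.

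Values were analysed as log2(FPKM + 1), and fold changes on this scale understate those of low genes. The 15495 genes whose mean exceeded 1 FPKM on any day entered limma with an intensity trend, with day as a factor over all 9 libraries. Two-sided p-values were adjusted after Benjamini and Hochberg over all genes tested. A gene was called at an adjusted p below 0.05. The script was tested on simulated data. The members and lists were chosen with earlier results of these data known, so lists are described by counts and medians without a test. Full statistics were given for called members, the highest of each role and the 3 largest and 3 smallest changes from PD14 to PD16. Named among other pathway genes were those called and the extremes of each list, where Sgo1 and Sgo2a, and the oocyte marker H1f8, were not matched by name.

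Alternatives were pseudocounts of 0.1 and 0.5, no filter, a filter of 5 FPKM, median-ratio scaling, quantile normalization, removal of a length trend, no intensity trend, array weights, a replicate block and leaving out each library. Motifs were searched in RefSeq promoters (GRCm38.p6). Fits ran in limma 3.58.1 under R 4.3.3. Tables and plots were made in Python 3.11.15 with pandas 2.3.3, Matplotlib 3.10.9 and NumPy 2.4.6.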

Additional observations from a re-analysis of the deposited data

How the results depend on the processing

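The median difference and the number of higher mitosis genes kept their direction in every comparison under all alternatives, and no gene of the 48 was called between PD14 and PD15 or between PD15 and PD16 in any of them. The count called between PD16 and PD14, 2 in the main analysis, was 0 with no filter, 3 with a filter of 5 FPKM (Anln, Kif20b and Kif2c) and 5 with array weights (Anln, Bub1, Ckap2l, Kif20b and Kif2c). It ranged from 0 to 8 when single libraries were left out. The labels do not say whether libraries with the same replicate number belong together. Their deviations from the day means correlated between -0.214 and 0.159, which cannot settle it. With a replicate block the count was 0, with an adjusted p of 0.0517 for Anln and 0.0704 for Kif2c in limma.

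With array weights the difference between PD16 and PD14 turned from negative to positive for Kif22 (0.0357) and Spc24 (0.0424). With single libraries left out it ranged from -0.0874 to 0.0468 for Birc5, from -0.0847 to 0.0485 for Kif22, from -0.123 to 0.0573 for Spc24, from -0.0355 to 0.114 for Ndc80, from -0.00200 to 0.110 for Ccnb2 and from -0.0631 to 0.171 for Cdc20. The range was 0.01015 to 0.145 for Incenp, 0.0564 to 0.191 for Plk1 and 0.0625 to 0.166 for Ect2. In these 3 genes the lowest value came without replicate 2 of PD16 and the highest without replicate 3 of PD16. The cause was not tested. With 3 libraries a day the intervals of single genes are wide, and differences of the size of the medians given here could not be told from the spread for most genes.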
